A study of Mus musculus with 24 samples.

Results

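The Wnt family of secreted glycoproteins was examined in mouse embryonic stem cells (ESCs) exposed to retinoic acid (RA), through 10 ligand genes picked by symbol: Wnt1, Wnt3, Wnt3a, Wnt4, Wnt5b, Wnt6, Wnt7b, Wnt8a, Wnt10b and Wnt11. They are 10 of the 26264 genes in the count table and 10 of its 19 Wnt ligand genes, and the other 9 (Wnt2, Wnt2b, Wnt5a, Wnt7a, Wnt8b, Wnt9a, Wnt9b, Wnt10a and Wnt16) were followed for comparison. RNA-seq was available for BAP1-AID ESCs and UTX-AID ESCs, each without and with indole-3-acetic acid (IAA, an auxin) and each at 0, 3 and 6 h of RA, which makes 12 groups of 2 libraries. BAP1 removes ubiquitin from histone H2A and UTX demethylates histone H3 at lysine 27, and the design asks whether the response to RA changes when either protein is degraded. Both lines carry an HA-AID tag on the endogenous protein, C-terminal in BAP1 and N-terminal in UTX, and both overexpress TIR1, the adaptor through which IAA directs a tagged protein to the proteasome. The −IAA cells of each line carry the tag and TIR1 too. IAA was added ahead of RA and was dissolved in ethanol, and a vehicle for the −IAA cells is not given in the sources used here. RA was given in medium lacking leukemia inhibitory factor (LIF), so RA and the loss of LIF cannot be told apart. The tag acts on the protein, so transcript counts do not check the depletion. The labels do not say whether the 2 libraries of a group came from separate cultures, so p-values measure the spread between these libraries, which may be technical. An untagged line was not analysed here, so the tagged protein, the clone and everything prepared with it cannot be told apart in a comparison of BAP1-AID with UTX-AID.

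Wnt ligands are lipid-modified by Porcupine, carried to the cell surface by Wntless and bound there by Frizzled receptors with LRP5/6 or ROR coreceptors. In the canonical branch, receptor engagement stabilises β-catenin, which acts with TCF/LEF factors on target genes, and Wnt3a, Wnt3, Wnt1 and Wnt8a are ligands classically assigned to it, while Wnt5a, Wnt5b and Wnt11 are best known for β-catenin-independent signalling. In ESCs Wnt signalling helps to maintain self-renewal, and in the early embryo Wnt3 is needed for the primitive streak while RA and Wnt ligands together pattern the posterior axis.

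The labelled cell type was checked first. All 8 ESC markers (Pou5f1, Nanog and others) lay above the floor of 3 counts in BAP1-AID and UTX-AID at 0 and 6 h, and their summed level was 3520 to 4163 CPM (counts scaled to library size). The summed markers of other cell types differed between the clones and, for several lists, between 0 and 6 h. Markers of fibroblasts, which are used as feeder cells, summed over 6 genes to 12.1 to 13.6 CPM at 0 h and 6.91 to 8.54 at 6 h in BAP1-AID and to 4.18 to 7.04 and 2.48 to 4.28 in UTX-AID, with Postn at or below the floor. Those of primitive streak and mesoderm summed over 5 genes to 11.75 to 16.3 CPM at 0 h and 6.69 to 9.11 at 6 h in BAP1-AID and to 4.28 to 7.10 and 3.65 to 5.45 in UTX-AID. Primitive endoderm markers, over 6 genes, summed to 3.59 to 6.00 CPM at 0 h and 8.38 to 9.08 at 6 h in BAP1-AID, where Gata6 was called higher, and to 2.22 to 5.245 and 3.27 to 5.23 in UTX-AID. Over 5 genes, trophoblast markers summed to 1.96 to 2.94 CPM at 0 h and 13.6 to 15.3 at 6 h in BAP1-AID and to 1.18 to 2.17 and 7.42 to 8.48 in UTX-AID. Tfap2c was the only 1 of the 4 tested that was called at 6 h, higher in both clones and arms. Elf5 was at or below the floor at 6 h in BAP1-AID. Neural markers, over 5 genes, summed to 85.6 to 97.8 CPM in BAP1-AID and 49.9 to 65.85 CPM in UTX-AID, with overlapping ranges at 0 and 6 h in each. The part of other cell types in the results below was not tested. In bulk samples, fewer cells of a type and less RNA per cell cannot be told apart.

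Most of these ligands were close to the detection limit. Libraries held 42018795 to 54034789 counts, so that 3 counts correspond to 0.0545 to 0.0693 CPM. For 9 of the 10 genes the median library had under 30 counts, and Wnt8a was the exception with a median of 150.5. The deposited counts were estimated from coverage, so a gene is described as listed at 0 rather than absent. After the filter on low counts, 7 of the 10 were tested in BAP1-AID (not Wnt1, Wnt10b or Wnt11) and 8 in UTX-AID (not Wnt10b or Wnt11). A gene was called when edgeR's quasi-likelihood test gave a Benjamini-Hochberg adjusted p below 0.05 over all genes tested and a log2 fold change beyond 1 in either direction.

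The sequences upstream of Wnt3 and Wnt3a are shown because their counts went in opposite directions with RA in BAP1-AID −IAA ESCs. Their counts also differed between the clones before RA. In BAP1-AID −IAA, edgeR called the Wnt3 fall at 6 h and did not call the Wnt3a rise. Wnt3 lies on the plus strand at chr11:103664976-103708853 with 5 exons and Wnt3a on the minus strand at chr11:59138859-59181584 with 4 exons (GRCm39, GENCODE vM39). The 250 bases before each annotated start follow, 5′ to 3′ on the strand of the gene, at chr11:103664726-103664975 for Wnt3 and chr11:59181585-59181834 for Wnt3a. Capitals mark GGGCGG, the core of a GC box, on either strand, so that matches on the opposite strand read as its reverse complement.
Wnt3: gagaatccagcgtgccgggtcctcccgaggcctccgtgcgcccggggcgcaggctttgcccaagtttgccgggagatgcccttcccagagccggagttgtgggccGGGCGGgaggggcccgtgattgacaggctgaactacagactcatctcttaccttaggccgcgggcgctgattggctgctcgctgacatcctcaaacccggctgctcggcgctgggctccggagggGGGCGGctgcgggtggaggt
Wnt3a: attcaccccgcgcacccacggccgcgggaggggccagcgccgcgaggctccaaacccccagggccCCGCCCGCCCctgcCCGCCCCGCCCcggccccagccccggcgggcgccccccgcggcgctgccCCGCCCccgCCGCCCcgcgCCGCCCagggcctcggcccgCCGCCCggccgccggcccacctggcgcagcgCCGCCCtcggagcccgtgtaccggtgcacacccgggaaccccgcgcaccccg
Wnt3a held 9 matches and Wnt3 held 2.

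In windows from 250 bases before to 50 after the start, GGGCGG on either strand was found in 9 of the 10 ligands, with Wnt8a as the exception, and in 42.5% of 21770 protein-coding genes. Of the ligands followed for comparison, Wnt2, Wnt2b, Wnt5a, Wnt8b, Wnt10a and Wnt16 lacked it too. The windows of the 10 held 58.0% (Wnt8a) to 85.3% (Wnt3a) G and C, beside a median of 54.3% over all windows. GGGCGG is made of G and C alone, and the part of GC content in these matches was not tested. The Wnt8a window held 4 CpG dinucleotides, fewer than in the other 9 of the 10 and below the median of 11 over all windows. Among the ligands for comparison, Wnt8b (6), Wnt10a (7) and Wnt16 (10) also lay below that median. AGGTCA, a half-site of nuclear receptors such as the RA receptors, was found in Wnt8a alone among the 10, at 2 places, and in 15.1% of all windows. It was also found in Wnt16, a ligand for comparison, at 1 place. CTTTGA, the core letters of a TCF/LEF site, was likewise found in 1 of the 10 (Wnt8a) and in 16.2% of all windows, while TATAAA was in 0 of the 10 and in 13.2% of all windows. The searches covered both strands, and these matches are descriptions of letters in a window.

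To see which ligands responded to RA, each time was compared with 0 h within a clone and arm. Wnt8a was the only one of the 10 called higher, and it was called in all 8 comparisons. In BAP1-AID it was 1 of 7 ligands tested, against a background of 1.89% of all genes called higher at 3 h and 2.98% at 6 h without IAA, and 2.05% and 3.18% with IAA. In UTX-AID it was 1 of 8, against 1.28% and 1.51% without IAA and 1.1% and 1.63% with IAA. Wnt3 was the only ligand called lower, at 6 h in BAP1-AID −IAA, where 1.12% of all genes were called lower. No ligand of the 10 was called lower in the remaining comparisons, where the background was 0.357% (BAP1-AID −IAA, 3 h), 0.363% and 1.33% (BAP1-AID +IAA, 3 and 6 h), 0.221% and 0.4% (UTX-AID −IAA) and 0.16% and 0.369% (UTX-AID +IAA). At an unadjusted p under 0.05 in either direction, 1 to 3 of the 10 passed in each of the 8 comparisons. DESeq2 added Wnt3 as lower at 3 h in BAP1-AID −IAA and Wnt3a as higher at 6 h in both arms of BAP1-AID. The comparisons at 3 and 6 h share their 0 h libraries.

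Wnt8a encodes a ligand of the posterior embryo and a canonical activator of β-catenin. In BAP1-AID −IAA ESCs its counts were 40 and 39 at 0 h, 435 and 504 at 3 h, and 541 and 488 at 6 h. With IAA they were 40 and 46, then 444 and 472, then 566 and 517. Every RA-treated library lay far above every untreated library of this clone, and the replicates of each time lay close together. The mean level went from 0.766 ± 0.00926 CPM (SD, n = 2) to 9.49 ± 0.459 at 3 h and 10.3 ± 0.98 at 6 h without IAA. This was a 12.3-fold rise at 3 h (log2 fold change 3.62, SE 0.16, adjusted p = 3e-08) and a 13.5-fold rise at 6 h (3.75, SE 0.16, adjusted p = 1.28e-08). With IAA the rise was 11.2-fold at 3 h (adjusted p = 3.68e-08) and 12.7-fold at 6 h (adjusted p = 1.41e-08). Between 3 and 6 h Wnt8a moved by 0.13 on the log2 scale without IAA and by 0.18 with IAA, neither called.

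In UTX-AID ESCs Wnt8a started from a similar level and reached a lower level at 6 h. Its counts without IAA were 44 and 29 at 0 h, 151 and 198 at 3 h, and 99 and 119 at 6 h. With IAA they were 43 and 39, then 179 and 118, then 151 and 150. All RA-treated libraries lay above all untreated ones. Without IAA the 3 h libraries lay above the 6 h libraries, whereas with IAA the 6 h values fell between the 3 h values. The mean went from 0.749 ± 0.225 CPM (SD, n = 2) to 3.77 ± 0.394 at 3 h and 2.25 ± 0.0926 at 6 h without IAA. With IAA the means were 0.794 ± 0.0235, 2.80 ± 0.639 and 2.99 ± 0.161 CPM. The rise was 5.04-fold at 3 h (log2 fold change 2.33, SE 0.30, adjusted p = 0.000121) and 3.00-fold at 6 h (1.59, SE 0.30, adjusted p = 0.00275) without IAA. With IAA it was 3.54-fold at 3 h (adjusted p = 0.00118) and 3.78-fold at 6 h (adjusted p = 0.000451). The difference between 6 and 3 h without IAA, −0.75 on the log2 scale, had an adjusted p of 0.342.

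**Figure D1:**
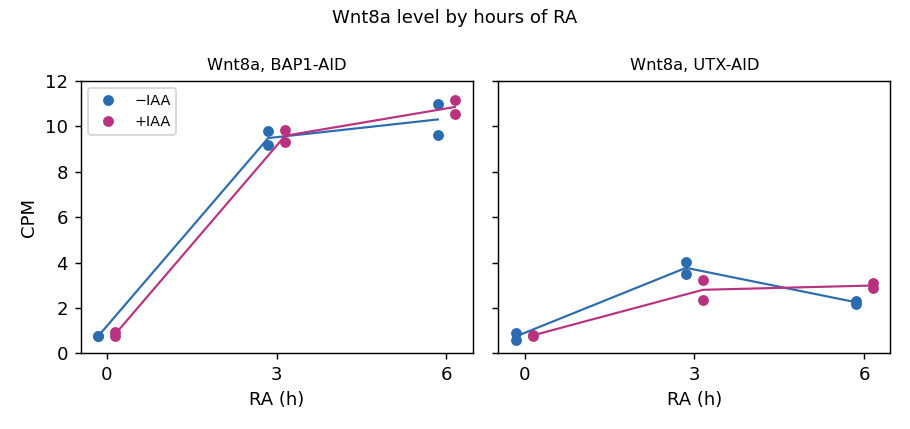
Wnt8a level in CPM against hours of RA in BAP1-AID (left) and UTX-AID (right) ESCs, with 1 point per library, lines through the means of 2 libraries and colour for the IAA arm. All libraries at 0 h lie between 0.59 and 0.938 CPM, while RA-treated libraries reach 9.16 to 11.15 CPM in BAP1-AID and 2.19 to 4.04 CPM in UTX-AID.

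The difference between the clones in the response of Wnt8a was tested directly with all 24 libraries in a single fit. At 0 h without IAA the clones differed by −0.03 on the log2 scale (UTX-AID minus BAP1-AID, 95% interval −0.54 to 0.49, adjusted p = 0.953). The response at 6 h was smaller in UTX-AID by 2.15 log2 units without IAA (difference −2.15, SE 0.32, adjusted p = 0.000841) and the corresponding difference with IAA was −1.76 (SE 0.31, adjusted p = 0.00232). At 3 h without IAA the difference of −1.28 did not pass (adjusted p = 0.0966). Wnt8a was the only one of 9 ligands tested whose 6 h response was called lower in UTX-AID, against 0.202% of all genes, and none was called higher, against 0.0238%. At an unadjusted p under 0.05, 3 of the 9 passed in either direction. All 30 alternative fits called this difference, with values between −2.42 and −1.77.

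The design asks next whether degradation of the tagged protein altered these responses, and no ligand of the 10 was called. For Wnt8a in BAP1-AID, the response with IAA minus that without was −0.13 at 3 h (95% interval −0.62 to 0.36) and −0.09 at 6 h (−0.58 to 0.41) on the log2 scale. In UTX-AID it was −0.51 at 3 h (−1.38 to 0.37) and 0.33 at 6 h (−0.55 to 1.21). The intervals in UTX-AID were the wider ones. An altered response was called for 0.0% of all genes at 3 h and 0.0255% at 6 h of RA in the BAP1-AID clone, and for 0.0123% and 0.0% in the UTX-AID clone. For the arms averaged over the 3 times, 0 of 7 and 0 of 8 ligands were called, against 1.51% of all genes in the first clone and 0.135% in the second. Neither edgeR at an unadjusted p under 0.05 nor DESeq2 at the same thresholds picked any of the 10 in these 6 comparisons. Between 6 and 3 h no ligand was called, against 0.382% and 0.624% in BAP1-AID without and with IAA and 0.0492% and 0.0615% in UTX-AID, and at an unadjusted p under 0.05 there were 0 in BAP1-AID and 1 in each arm of UTX-AID.

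Wnt3, a canonical ligand required for gastrulation, was present before RA in BAP1-AID ESCs and nearly unlisted in UTX-AID ESCs. Its counts in BAP1-AID −IAA were 67 and 78 at 0 h, 23 and 9 at 3 h, and 18 and 11 at 6 h. With IAA they were 34 and 54, then 38 and 18, then 35 and 15. Without IAA the untreated and treated libraries did not overlap, whereas with IAA they did. In UTX-AID, 10 of 12 libraries were at 0, and the others held 12 (−IAA, 0 h) and 17 (−IAA, 6 h). In BAP1-AID −IAA, Wnt3 fell from 1.41 ± 0.193 CPM (SD, n = 2) to 0.291 ± 0.105 at 6 h, a log2 fold change of −2.26 (SE 0.67, adjusted p = 0.0381), and the value at 3 h was −2.10 (adjusted p = 0.085). The 6 h call was lost in 6 of 19 alternative fits. The adjusted p was 0.0935 and 0.127 without replicate 1 or 2 at 0 h −IAA, 0.103 and 0.222 without replicate 1 or 2 at 6 h −IAA, 0.0509 without replicate 2 at 0 h +IAA, and 0.280 with all 24 libraries in a single fit. With IAA the 6 h value was −0.81 (adjusted p = 0.482). The 6 h responses of the arms differed by 1.45 (95% interval −0.55 to 3.44, adjusted p = 0.651), so no difference between them was shown.

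Wnt3a, the ligand most often used to activate β-catenin in culture, behaved the other way round at low counts. In BAP1-AID −IAA its counts were 0 and 3 at 0 h, 15 and 14 at 3 h, and 38 and 29 at 6 h, and with IAA they were 0 and 0, then 0 and 14, then 31 and 11. Within this clone the 6 h libraries lay above all 0 h libraries in both arms. The ratio of 6 h to 0 h without IAA was 23.1 (95% interval 7.56 to 114.6 from counting error, 3 counts against 67). With IAA the 6 h mean lay 7.02-fold above the floor of 3 counts per library for the 0 h libraries. That floor covers counting error only. edgeR did not call either difference (adjusted p = 0.107 and 0.056). DESeq2 called both, as did edgeR with all 24 libraries in a single fit, with adjusted p of 0.0231 and 0.0246 for the −IAA arm. The fitted log2 value without IAA, 4.41, rested on the 3 counts of 1 library at 0 h: it was 3.45 without replicate 1 and 8.08 without replicate 2 of that group, and with only 0 counts left the latter is no bound. In UTX-AID the counts were 25 and 7 at 0 h, 59 and 41 at 3 h, and 23 and 29 at 6 h without IAA, and 5 and 19, then 26 and 27, then 42 and 49 with IAA. The 6 h values overlapped those at 0 h without IAA and lay above them with IAA, where the log2 fold change was 1.94 (SE 0.74, adjusted p = 0.167).

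**Figure D2:**
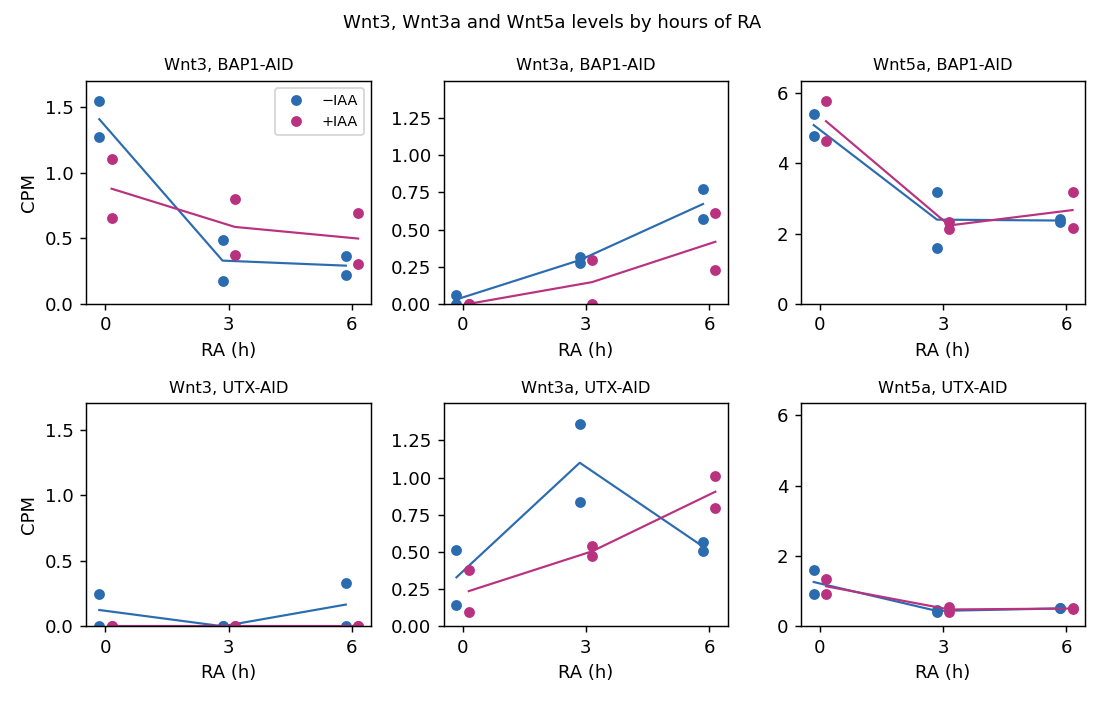
Levels of Wnt3, Wnt3a and Wnt5a in CPM against hours of RA in BAP1-AID (top) and UTX-AID (bottom) ESCs, with 1 point per library, lines through the means of 2 libraries and colour for the IAA arm. Wnt3 starts at 1.27 and 1.55 CPM in BAP1-AID −IAA and is at 0 in 10 of 12 UTX-AID libraries, and Wnt3a starts at 0 to 0.0594 CPM in BAP1-AID.

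Before RA, Wnt3 and Wnt3a were called different between the clones in opposite directions, and 1 of 9 ligands in each direction is close to the share of all genes. Of 9 ligands tested at 0 h without IAA, Wnt3a was called higher in UTX-AID (log2 difference 3.39, SE 1.31, adjusted p = 0.0339), where 13.5% of all genes were. Wnt3 was called lower (−3.48, SE 1.38, adjusted p = 0.0427), where 7.34% of all genes were. From counts, the Wnt3a ratio of UTX-AID to BAP1-AID was 11.3 (95% interval 3.53 to 57.6, 32 counts against 3). With IAA the lower clone was at 0 in both libraries for each gene. Against the floor of 3 counts per library, Wnt3a was at least 3.97-fold higher in UTX-AID and Wnt3 at least 15.1-fold higher in BAP1-AID. That floor covers counting error only. In that arm 2 of the 9 ligands (Wnt3a and Wnt6) were called higher in UTX-AID and 1 (Wnt3) lower, where 12.1% and 7.72% of all genes were. The +IAA call for Wnt3a was lost without UTX-AID +IAA replicate 2 at 0 h (adjusted p = 0.062). The call for Wnt3a was lost without BAP1-AID −IAA replicate 1 at 0 h or UTX-AID −IAA replicate 1 at 0 h. That for Wnt3 was lost without any of BAP1-AID −IAA replicate 1 or 2, BAP1-AID +IAA replicate 2 or UTX-AID −IAA replicate 2 at 0 h, and with the correction for GC content and length.

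Wnt1 and Wnt10b, canonical ligands that sit next to each other, were treated together. Wnt1 (chr15:98687738-98691718, plus strand, 4 exons) and Wnt10b (chr15:98668593-98690045, minus strand, 5 exons) share 489 exonic bases when the exons of all annotated transcripts are taken. The canonical Wnt10b transcript, to which the 5 exons belong, starts at chr15:98676449 and does not reach Wnt1. Strand use in counting is not given in the sources used here, so reads from the shared stretch cannot be assigned. At 0 h both genes were at 0 in all 8 libraries. After RA, Wnt1 was above 0 in 5 of 8 libraries at 3 h and 4 of 8 at 6 h, with at most 17 counts. All 4 UTX-AID libraries at 3 h held Wnt1 counts (12 and 4 without IAA, 16 and 9 with IAA), whereas 1 of 4 BAP1-AID libraries did (7 counts). At 6 h it was the other way round, with counts in 3 of 4 BAP1-AID libraries (27 in all) and in 1 of 4 UTX-AID libraries (4 counts). The Wnt1 mean at 3 h in UTX-AID lay 2.92-fold above the floor of 3 counts per library without IAA and 4.04-fold above it with IAA. That floor covers counting error only and not the spread between libraries. edgeR called neither difference from 0 h (adjusted p = 0.345 and 0.379). Wnt10b reached 7 counts at most and was at 0 in 21 of 24 libraries. With the counts of both genes summed, the adjusted p was 0.277 and 0.353 for 3 h in UTX-AID without and with IAA, and 0.355 and 0.439 for 6 h −IAA in BAP1-AID and UTX-AID.

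Wnt7b, Wnt6, Wnt5b, Wnt4 and Wnt11 were low throughout, and none of the first 4 was called at either time in either clone, while Wnt11 did not pass the filter. Wnt7b (chr15:85419638-85466674), known from lung and kidney development, ranged from 0 to 17 counts at 0 h, from 7 to 49 at 3 h and from 7 to 33 at 6 h. Its 6 h value in BAP1-AID −IAA was 2.29 on the log2 scale (SE 1.11, adjusted p = 0.213). The 0 h libraries there held 11 and 0 counts, and without the first of them Wnt7b was called (adjusted p = 0.0316). Wnt6 (chr1:74810922-74824975) ranged from 3 to 22 counts at 0 h, from 17 to 42 at 3 h and from 6 to 17 at 6 h, and its 6 h value was −0.95 in BAP1-AID (SE 0.97, adjusted p = 0.598) and −0.93 in UTX-AID (SE 0.81, adjusted p = 0.658), both without IAA. The ranges at 0 and 3 h overlapped. At 0 h with IAA, Wnt6 was called higher in UTX-AID (19 and 18 counts) than in BAP1-AID (3 and 3), with a log2 difference of 2.54 (SE 0.96, adjusted p = 0.03). The call was lost without any 1 of these 4 libraries, where the adjusted p was 0.071 to 0.124. Without IAA the counts were 22 and 18 against 10 and 22 and the difference was 0.40 (SE 0.85, adjusted p = 0.733).

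Wnt5b (chr6:119409323-119521897), a β-catenin-independent ligand, held counts in every library, from 3 to 33. Its 6 h value without IAA was −1.12 in BAP1-AID (SE 0.78, adjusted p = 0.408) and −0.54 in UTX-AID (SE 1.12, adjusted p = 0.895). Over all annotated transcripts, Wnt5b shares 1244 exonic bases on the opposite strand with Fbxl14, which held 1879 to 3042 counts per library. The part of Fbxl14 reads in the Wnt5b counts was not tested. Wnt4 (chr4:137004373-137027037), known for its role in the gonad and kidney, differed within groups by as much as 0 against 21 counts (BAP1-AID −IAA, 0 h), and its 6 h value there was 0.17 (SE 1.49, adjusted p = 0.964). Wnt11 (chr7:98484319-98504402), a ligand of cell movement in gastrulation, was at 0 in 15 of 24 libraries. In BAP1-AID +IAA it was at 0 in all 6 libraries, while in BAP1-AID −IAA it held 9 and 11 counts at 0 h and 0 and 0 at 6 h. The 0 h mean without IAA lay 3.24-fold above the floor of 3 counts per library for the 6 h libraries. That floor covers counting error only and not the spread between libraries, and Wnt11 was not tested in this clone. In UTX-AID −IAA Wnt11 did not fall, with 0 counts in all at 0 h and 10 and 0 counts at 6 h. As 1 of these 6 h libraries was at 0, no bound on a rise is given. Over both arms UTX-AID held 10 counts at 0 h and 26 at 6 h.

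**Figure D3:**
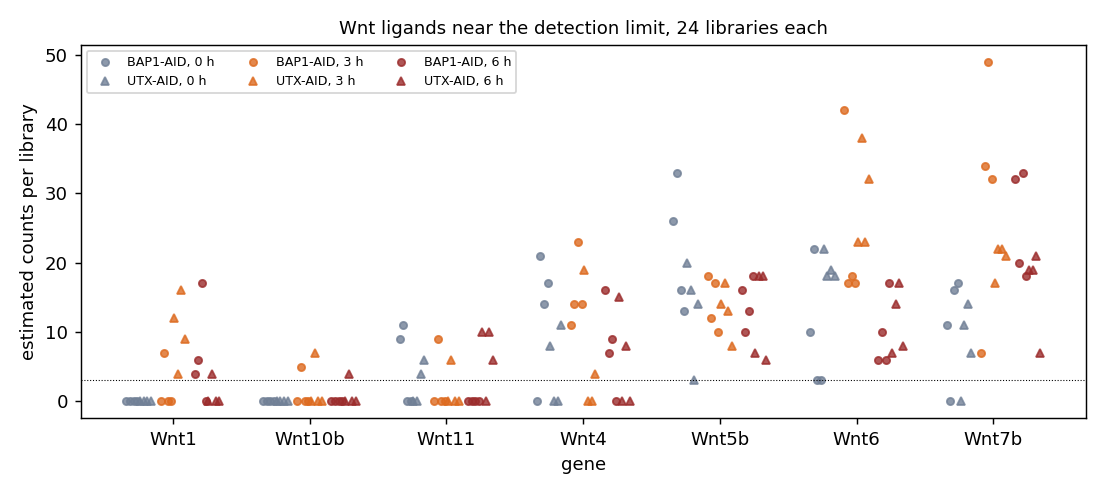
Estimated counts per library for 7 ligands near the detection limit (24 libraries each), coloured by hours of RA with circles for BAP1-AID and triangles for UTX-AID, and a dotted line at 3 counts. Wnt1 and Wnt10b are at 0 in all 8 libraries at 0 h, and none of the 7 genes exceeds 49 counts in a library.

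Over all tested members, the log2 fold changes at 6 h without IAA had a median of 0.17 for the 7 genes of BAP1-AID and 0.83 for the 8 genes of UTX-AID, beside medians of 0.02 and −0.0026 over all genes tested. These medians include fitted values of genes with groups at 0, and members that did not pass the filter are left out.

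Among the 9 other ligands, Wnt5a, the prototype of β-catenin-independent signalling, was the only one called after RA. In BAP1-AID −IAA it held 251 and 273 counts at 0 h, 76 and 164 at 3 h, and 114 and 123 at 6 h. Without IAA the log2 fold change was −1.09 after 3 h of RA (SE 0.30, adjusted p = 0.0468). After 6 h it was −1.10 (SE 0.30, adjusted p = 0.0256). With IAA the 3 h value was −1.22 (SE 0.30, adjusted p = 0.0292). At 6 h with IAA the change of −0.96 (adjusted p = 0.047) stayed within the fold threshold. In UTX-AID −IAA it held 44 and 79 counts at 0 h and 23 and 26 at 6 h, a log2 fold change of −1.30 (SE 0.50, adjusted p = 0.175). The 6 h responses of the clones differed by −0.20 (95% interval −1.21 to 0.81). At 0 h Wnt5a was 4.01-fold higher in BAP1-AID than in UTX-AID (adjusted p = 2.57e-05).

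Put on a scale per kilobase of transcript, so that genes can be ranked, the make-up of the family changed with RA. At 0 h without IAA in BAP1-AID, Wnt5a led at 0.704 ± 0.0629 CPM per kb (SD, n = 2), followed by Wnt9a at 0.519 ± 0.0157, Wnt3 at 0.448 ± 0.0614 and Wnt8a at 0.417 ± 0.00509. Wnt3 and Wnt8a lay within their spread of each other. In UTX-AID, Wnt8a stood at 0.408 ± 0.123, Wnt9a at 0.272 ± 0.0179, Wnt2b at 0.255 ± 0.132 and Wnt5a at 0.174 ± 0.0685, and the spread of Wnt2b covered the levels of its neighbours. The sum over the 19 ligands in BAP1-AID was 2.67 to 2.99 CPM per kb at 0 h, 6.73 to 7.72 at 3 h and 7.44 to 8.72 at 6 h (4 libraries each, both arms). In UTX-AID it was 1.82 to 2.06, then 2.76 to 4.23, then 2.67 to 3.50. Wnt8a made up 14.1% to 17.8% of this sum at 0 h in BAP1-AID and 69.7% to 73.4% at 6 h, and 17.7% to 26.5% and 42.9% to 49.5% in UTX-AID. It ranked first in all 16 RA-treated libraries and in 1 of the 8 untreated ones.

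**Figure D4:**
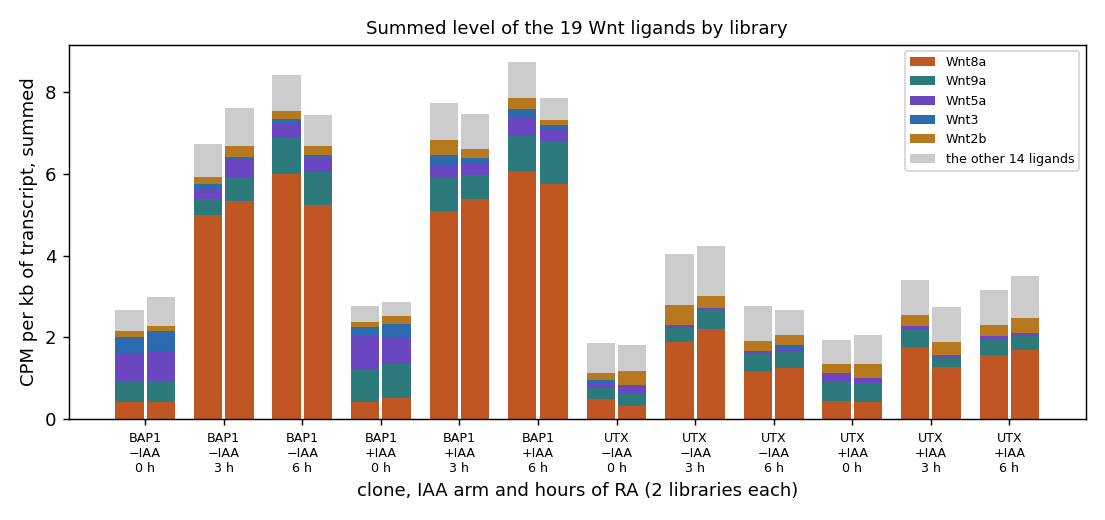
Summed level of the 19 Wnt ligands in CPM per kb of transcript, 1 bar per library grouped by clone, IAA arm and hours of RA, with colours for 5 ligands and grey for the other 14. The growth of the bars with RA is mostly the Wnt8a segment, which reaches 69.7% to 73.4% of the bar in BAP1-AID and 42.9% to 49.5% in UTX-AID at 6 h.

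The genes whose log2 CPM was most like that of Wnt8a over the 24 libraries, among 12328 with a mean above 1 CPM, were Mcl1 (Pearson's r = 0.970), Dhrs3 (0.967) and Kit (0.961). Mcl1 is an inhibitor of apoptosis, Dhrs3 a retinaldehyde reductase of RA metabolism and Kit a receptor tyrosine kinase. Within BAP1-AID the r was 0.990, 0.996 and 0.971, and within UTX-AID 0.882, 0.943 and 0.912 (12 libraries each). For Wnt3 the nearest genes were Pofut1 (0.903), Atxn7l3 (0.899) and Gm26644 (0.898), but these were 0.242, 0.478 and 0.795 within BAP1-AID and 0.845, 0.569 and 0.425 within UTX-AID, where Wnt3 was at 0 in 10 of 12 libraries. These values describe libraries that share the same RA times and clones.

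The other components of the pathway were examined through lists at 6 h without IAA, where the background of all genes in BAP1-AID was 2.98% called higher and 1.12% lower, while for UTX-AID it was 1.51% and 0.4%. Of secretion genes, 4 were tested in BAP1-AID and Porcn, the acyltransferase that lipid-modifies Wnt ligands, was called higher. Porcn went from 13.0 and 14.6 CPM at 0 h to 36.2 and 36.3 CPM at 6 h in BAP1-AID (log2 fold change 1.40, SE 0.09, adjusted p = 4.21e-07). In UTX-AID it went from 14.5 and 13.1 CPM to 27.1 and 27.8 CPM, and its change of 0.99 (adjusted p = 0.000107) stayed just within the fold threshold, so that 0 of 3 secretion genes were called there (1 at an unadjusted p under 0.05). The treated and untreated libraries did not overlap in either clone.

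Of 16 receptors and coreceptors tested in each clone, 1 was called higher and 1 lower in BAP1-AID, and 0 in UTX-AID (4 at an unadjusted p under 0.05). Ror2, a receptor for Wnt5a, rose from 2.64 ± 0.998 to 7.49 ± 0.187 CPM in BAP1-AID (log2 fold change 1.51, SE 0.24, adjusted p = 0.000888), and the value in UTX-AID was 0.42 (adjusted p = 0.541). Fzd10 fell from 8.03 ± 1.38 to 3.60 ± 0.543 CPM (−1.15, SE 0.17, adjusted p = 0.000643), and the value in UTX-AID was −0.65 (adjusted p = 0.269). Of 9 secreted antagonists tested, Sfrp5 was called higher (1.57, SE 0.49, adjusted p = 0.048) and Sfrp4 lower (−1.76, SE 0.37, adjusted p = 0.00623) in BAP1-AID, both being secreted Frizzled-related proteins, and edgeR called 0 in UTX-AID (2 at an unadjusted p under 0.05). Sfrp4 started from 3.22 ± 0.205 CPM in BAP1-AID and 9.70 ± 0.191 CPM in UTX-AID. In UTX-AID it fell to 5.80 ± 1.10 CPM, and this change of −0.74 (adjusted p = 0.0332) stayed within the fold threshold. The value of Sfrp5 in UTX-AID was 0.10 (adjusted p = 0.976). None of 6 genes of the R-spondin axis and none of 15 intracellular components was called in either clone by edgeR. Lgr4, of the R-spondin axis, passed adjusted p within the fold threshold in BAP1-AID (−0.75, adjusted p = 0.000749) and UTX-AID (−0.74, adjusted p = 2.23e-05). The same held for the antagonist Sfrp1 (−0.78, adjusted p = 0.000348, and −0.89, adjusted p = 0.000412). At an unadjusted p under 0.05 there were 1 and 2 of the R-spondin axis and 3 and 2 intracellular components in BAP1-AID and UTX-AID. The difference between the clones was not tested for the genes of these lists.

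Among target genes of β-catenin, 15 were tested in BAP1-AID (2 called higher, 1 lower) and 16 in UTX-AID (1 higher, 1 lower). At an unadjusted p under 0.05 there were 7 in BAP1-AID and 6 in UTX-AID. Ccnd1 passed adjusted p within the fold threshold in BAP1-AID (−0.56, adjusted p = 6.69e-05) and UTX-AID (−0.49, adjusted p = 0.00471). Cdx1, a homeobox gene that is also a known target of RA, rose in both clones, from 4 counts in all at 0 h to 2.33 ± 0.0943 CPM at 6 h in BAP1-AID (adjusted p = 0.000305) and at least 59.6-fold in UTX-AID, where 0 counts stood at 0 h (3.66 ± 0.502 CPM at 6 h). Lef1, a TCF/LEF factor that acts with β-catenin, fell in both clones. It went from 98.6 ± 8.58 to 25.2 ± 0.658 CPM in BAP1-AID (−1.97, SE 0.09, adjusted p = 2.02e-08). For UTX-AID the fall was from 35.4 ± 4.22 to 7.94 ± 1.37 CPM (−2.15, SE 0.21, adjusted p = 5.22e-06). The other TCF/LEF factors in these lists, Tcf7, Tcf7l1 and Tcf7l2, had log2 fold changes of 0.40, 0.0063 and 0.02 in BAP1-AID. Their values in UTX-AID were 0.17, 0.34 and −0.27, and none of them was called in either clone. Tcf7 in BAP1-AID (adjusted p = 0.000988) and Tcf7l1 in UTX-AID (adjusted p = 0.0201) passed adjusted p within the fold threshold. Sp8 rose in BAP1-AID from 7.28 ± 0.260 to 18.9 ± 0.868 CPM (1.38, SE 0.12, adjusted p = 9.95e-06), and its value in UTX-AID was 0.28 (adjusted p = 0.662). At 6 h with IAA, Porcn, Ror2, Sfrp4, Cdx1 and Lef1 were again called in BAP1-AID, and Lgr4 (lower) and Tnfrsf19 (higher) were called there too, but Fzd10, Sfrp5 and Sp8 were not. Without IAA, Lgr4 and Tnfrsf19 in BAP1-AID stayed just within the fold threshold (−0.75 and 0.98, adjusted p = 0.000749 and 0.00105). In UTX-AID +IAA, Cdx1 and Lef1 were again called, along with Fzd2 and Axin2, both lower. Without IAA, Fzd2 and Axin2 stood at −0.49 and −0.63 in UTX-AID (adjusted p = 0.377 and 0.0795). In BAP1-AID −IAA they stood at −0.55 and −0.84 (adjusted p = 0.0102 and 0.00306), within the fold threshold. Differences between the arms were not tested for these genes. The β-catenin target list without IAA had a median of −0.08 in BAP1-AID ESCs and 0.05 in UTX-AID ESCs, beside 0.02 and −0.0026 over all genes. For the 4 lists before it the medians in BAP1-AID and UTX-AID were −0.10 and 0.02 (receptors), 0.57 and −0.18 (R-spondin axis), −0.02 and −0.62 (antagonists) and 0.0063 and 0.0013 (intracellular components), and for secretion −0.05 and −0.18. Genes with few counts enter these medians. In BAP1-AID, Rspo2, Rspo3 and Lgr6 held 16, 8 and 25 counts in all at 0 h. The −0.62 is the value of Wif1, with 25 counts in all at 0 h.

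**Figure D5:**
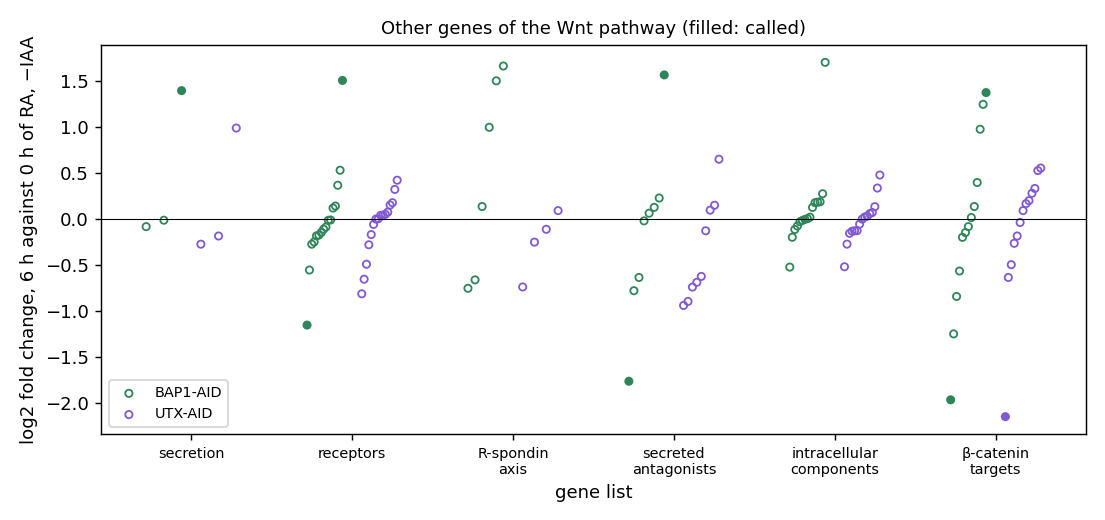
Log2 fold change after 6 h of RA without IAA for genes of 6 Wnt pathway lists in BAP1-AID (59 genes) and UTX-AID (58 genes), with filled points for called genes and genes at or below the floor of 3 counts at either time left out. Most points lie near 0, and the filled points in UTX-AID are limited to Lef1 at −2.15.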

How the data were processed

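RNA-seq was made from 24 libraries of BAP1-AID and UTX-AID mouse ESCs (12 groups, 2 libraries each). Libraries were made from oligo-dT selected RNA. According to the submitters' processing notes, HISAT2 2.2.1, SAMtools 1.19 and StringTie 2.2.1 were used, and the deposited table holds the authors' estimated counts per gene, whole numbers with no normalization. Because StringTie derives such counts from coverage, low values and zeros are less certain than tallied reads, and intervals and floors cover counting error only. The annotation and strand setting are not given in the sources used here.

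Counts were fitted with edgeR 4.0.16 (filterByExpr, which needs 10 counts in enough libraries and 15 in all, TMM, quasi-likelihood test, Benjamini-Hochberg adjustment over all genes tested) in R 4.3.3, with 15695 genes in BAP1-AID, 16268 in UTX-AID and 16816 in the fit of all 24 libraries. Adjusted p-values come from this test unless DESeq2 1.42.0 is named. Ratios against 1 to 3 counts carry an exact binomial 95% interval, and bounds against groups at 0 use 3 counts per library. Levels per kb divide CPM by the length of the canonical transcript. Gene symbols were matched to GENCODE vM39 (23897 of 26264, 91.0%), and upstream sequence was read from GRCm39. Replicates correlated at r = 0.982 to 0.986 on the log scale. The script was tested on simulated counts. The genes examined, the pathway lists and the tests were chosen with earlier results of these data known, so no count over a list is independent support. Named genes were the 19 ligands, plus, from each list, up to 4 genes per direction called at 6 h without IAA in both clones (by the largest mean change) and up to 2 called in 1 clone. Genes singled out for a pattern like that of a ligand were the 3 with the highest Pearson's r over the 24 libraries. Alternatives were DESeq2, RLE size factors, no filter, the replicate number as a block, a GC and length correction, all 24 libraries in a single fit, no minimum fold, and each library left out.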

Additional observations from a re-analysis of the deposited data

Results flagged for a closer look

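The 6 h response of Wnt8a without IAA differed between the clones in a test of the difference itself, at −2.15 on the log2 scale (UTX-AID minus BAP1-AID, 13.5-fold against 3.00-fold). The clone, the tagged protein and everything prepared with them cannot be told apart.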

How the results depend on the processing

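Every alternative kept Wnt8a called in all 8 RA comparisons, and no called value changed sign. At 3 h in BAP1-AID −IAA, DESeq2 called 2 ligands in place of 1, and leaving out a library gave 1 to 2. At 6 h in BAP1-AID −IAA (2 ligands), leaving out a library gave 1 to 2 and DESeq2 gave 3. At 6 h in BAP1-AID +IAA (1 ligand), DESeq2, the GC and length correction and the fit of all 24 libraries each gave 2, by adding Wnt3a, and leaving out a library gave 1 to 2. For the arms averaged over times in BAP1-AID (0 ligands), leaving out a library gave 0 to 1 (Wnt7b without −IAA replicate 1 at 0 h, Wnt3a without +IAA replicate 2 at 3 h). Between the clones at 0 h (2 ligands), the GC and length correction gave 1, alone and with the replicate block, and leaving out a library gave 0 to 2. The causes were not tested. Wnt3a at 6 h in BAP1-AID −IAA was called by DESeq2 (adjusted p = 0.0231) and in the fit of all 24 libraries (adjusted p = 0.0246). The libraries labelled with the same replicate number share only a number: over 15 pairs of groups per clone their deviations correlated at −0.08 to 0.21 in BAP1-AID and 0.04 to 0.20 in UTX-AID. With the replicate block alone, 2 ligands were called at 6 h in BAP1-AID −IAA and 2 between the clones, and no count of calls moved. Summing Wnt1 and Wnt10b with no filter, chosen after seeing the data, called neither clone at 6 h. Depth limits the 9 ligands with medians under 30 counts, for which a missed call says little.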
